A study of Mus musculus with 16 samples.

Results

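Exercise alone was compared with control in subcutaneous tumours of MC38, a colon carcinoma line of the mouse. The comparison takes in the 4 libraries titled exercise and the 4 titled control, which are 8 of the 16 libraries of the series, and every gene with a value in them. The labels say no more of the controls than that name, and no more of the exercise group than that it exercised. The other 8 libraries came from MC38 tumours under anti-PD-L1, an antibody against a checkpoint ligand, alone (4 libraries) or together with exercise (4 libraries, here the combination), and serve as a second setting in which exercise was present or absent. What all 4 groups share is the graft, which is 1 cell line. The strain, sex and age of the hosts, the kind and length of the exercise, the antibody dose and the day of collection are not stated in those labels. No label states that libraries of 1 group are separate animals, so each p-value below reflects the spread between these libraries, part or all of which may be technical.

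Exercise raises the fuel and oxygen use of muscle and sends adrenaline, glucocorticoids, lactate and muscle-derived cytokines into the blood, through which it can reach a tumour at a distance. The responses usually looked for in a tumour are its rate of cell division, its blood vessels and oxygen supply, its use of fuels and its infiltrate of immune cells. A further sensor of the supply of nutrients is ATF4, a transcription factor that is made when amino acids run short or the endoplasmic reticulum is under strain. ATF4 switches on genes that make, import and charge amino acids, together with its own feedback inhibitor, Trib3.

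Levels are given in FPKM, the number of sequenced fragments scaled to the length of the transcript and to the size of the library, as deposited. Fold changes are differences between the group means of log2(FPKM + 1), exercise minus control, followed by their standard error, and they understate the change of genes with low levels. Over the 8 libraries the FPKM values summed to between 478672 and 502140, between 11385 and 11873 genes reached 1 FPKM, and the 10 highest genes held 7.13% to 7.82% of the sum. Read depth is unknown.

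Some libraries stood apart from their group. The first principal component of the 8 libraries took 45.0% of their variance and placed controls 1 and 2 at 28.63 and 35.44, exercise 2, 3 and 4 between -20.57 and -16.3, and control 3, control 4 and exercise 1 between, at 0.97, -9.36 and 1.34. Exercise 1 correlated across genes with the controls at a mean of 0.978 and with the other exercise libraries at 0.976, while exercise 2 to 4 correlated with the controls at 0.965 to 0.968 and with the rest of their group at 0.984. Control 4 correlated with the exercise libraries at 0.984 and with the other controls at 0.971. Results are therefore given with all libraries and, where it matters, without exercise 1 or without controls 1 and 2. These choices were made after the libraries had been seen. The labels were kept as given, and whether exercise 1 and control 4 were exchanged was not tested.

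The labelled tissue was checked against its markers. Of 16 genes of simple epithelium 14 were measured and 3 were tested. The keratins Krt8 and Krt18 and the adhesion gene Epcam did not exceed 0.18 FPKM in any of the 8 libraries, while the keratin gene Krt19 measured 3.54, 4.87, 0.52 and 0.07 FPKM in the controls and at most 0.17 in the exercise libraries, and the cadherin gene Cdh1 1.28 to 2.77. Vim, which encodes the mesenchymal filament vimentin, measured 2117 to 2781 FPKM. T-cell markers were low, with Cd3e between 0.07 and 0.6 FPKM and Cd8a between 0.12 and 0.7. Control 2 carried RNA of skeletal muscle, with the muscle actin gene Acta1 at 2.13, 169.9, 0.83 and 4.24 FPKM in controls 1 to 4 and 2.46, 0.85, 5.29 and 0.65 in exercise 1 to 4.

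No gene passed an adjusted p of 0.05 for exercise against control among the 11868 tested (limma with Benjamini-Hochberg adjustment). The smallest adjusted p was 0.181, shared by 371 genes. At an unadjusted p under 0.05 there were 953 higher genes (8.03% of those tested) and 1178 lower ones (9.93%), or 18.0% in either direction. Every exercise library lay above every control library for 500 genes (4.21%) and below for 416 (3.51%), together 7.72%. Of all fold changes 46.2% were above 0 and 53.8% under it. With exercise 1 left out, 611 genes passed (5.15%), 177 higher (1.49%) and 434 lower (3.66%). Exercise 1 was singled out because it lay near the controls, so its removal by itself widens the distance between the groups. The counts and adjusted p-values without exercise 1 are therefore given as values of that smaller fit and not as changes with exercise.

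The gene with the smallest p was Tra2a, which encodes a splicing factor that binds exonic enhancers (chromosome 6, 49243921 to 49264248, by RefSeq at GRCm38.p6, a build that the submitters' processing notes also name). Tra2a measured 47.6, 46.1, 51.8 and 46.5 FPKM in controls 1 to 4 and 36.2, 26.8, 29.2 and 30.03 in exercise 1 to 4. The highest exercise library lay under the lowest control, and the difference was -0.64 ± 0.12 (adjusted p = 0.181, limma). Xpo1, which encodes exportin 1, the main carrier of proteins out of the nucleus (chromosome 11, 23255909 to 23297597), measured 50.6, 49.1, 49.7 and 48.7 FPKM in the controls and 43.5, 31.2, 28.5 and 29.99 in the exercise libraries. The 4 controls were nearly equal, exercise 1 lay between the controls and the other exercise libraries, and the difference was -0.58 ± 0.12 (adjusted p = 0.181, limma). Without exercise 1 the differences were -0.72 for Tra2a and -0.71 for Xpo1, with adjusted p of 0.0112 and 0.0089 in limma.

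Both belong to larger groups whose members lay mostly lower. Of 28 nuclear transport receptors and nucleoporins, 27 had a fold change under 0, with a median of -0.23, against a median of -0.02 over all genes tested. None passed, 12 had an unadjusted p under 0.05, all of them lower, where 9.93% of all genes were, and 4 had groups that did not overlap, where 3.51% of all genes lay lower in that way. The importin gene Ipo7, whose product carries ribosomal proteins and histones into the nucleus, measured 97.9, 73.2, 98.05 and 82.1 FPKM in the controls and 69.6, 44.7, 48.4 and 47.9 in the exercise libraries. All exercise libraries lay under all controls, a difference of -0.74 ± 0.16. Tnpo3, the importer of SR splicing proteins, and Kpna3, an adaptor that reads nuclear import signals, differed by -0.46 ± 0.13 and -0.39 ± 0.12, with groups that overlapped. Without exercise 1, 8 of the 28 passed, all lower, where 3.66% of all genes did, Xpo1, Ipo7, Tnpo3 and Kpna3 among them.

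Among 25 SR proteins and splicing regulators 20 lay under 0, where 53.8% of all genes did, at a median of -0.20. Of the 25, 4 had groups that did not overlap, all lower, where 3.51% of all genes were. Groups did not overlap for Tra2a and for Tra2b, Srsf1 and Srsf10, the last of which measured 79.9, 70.1, 106 and 77.9 FPKM in the controls and 67.3, 48.1, 61.97 and 67.2 in the exercise libraries, a difference of -0.44 ± 0.15. Tra2b and Srsf1 are named because their groups did not overlap, a choice made after their values were seen. Luc7l3 and Rbm39, which help select splice sites, differed by -0.61 ± 0.21 and -0.39 ± 0.13. In both genes exercise 1 lay among the controls, at 120.6 and 134 FPKM, against 55.3 to 96.5 and 88.9 to 112 in exercise 2 to 4. Without exercise 1, 3 of the 25 passed, all lower, where 3.66% of all genes did, namely Tra2a, Luc7l3 and Rbm39.

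**Figure D1:**
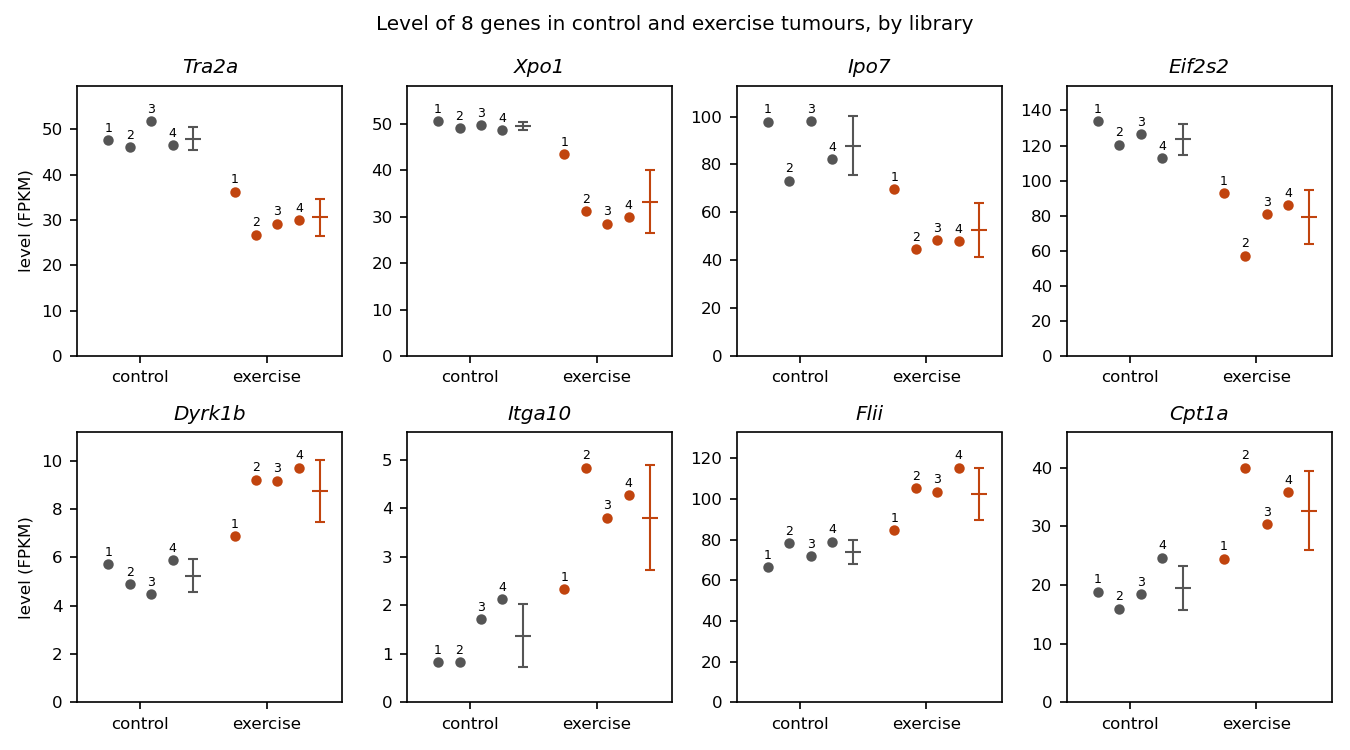
Level in FPKM (vertical axes, each from 0) of 8 genes in controls 1 to 4 and exercise 1 to 4, numbered beside the points, with bars for the mean ± SD of 4 libraries. Exercise 1 is the exercise library nearest to the controls for each of the 8 genes, and only for Cpt1a does it fall within the range of the controls, where control 4 lies just above it.

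Uba3, Nae1 and Eif2s2 were also among the 12 lower genes with the smallest p. The 12 lower and 12 higher genes were picked only from genes whose groups did not overlap. Uba3 and Nae1 encode the 2 subunits of the enzyme that activates NEDD8, the ubiquitin-like protein that switches on cullin ubiquitin ligases. Uba3 measured 54.1, 46.5, 58.9 and 48.98 FPKM in the controls and 42.01, 26.6, 34.7 and 30.99 in the exercise libraries, and Nae1 measured 40.2, 32.2, 38.7 and 37.2 and 31.1, 21.2, 26.1 and 25.8. Neither gene had overlapping groups, as that choice requires, and the differences were -0.63 ± 0.14 and -0.50 ± 0.11. Eif2s2, the beta subunit of the initiation factor eIF2 that brings the first transfer RNA to the ribosome, measured 134, 120.4, 127 and 113 FPKM in the controls and 92.9, 57.2, 80.8 and 85.98 in the exercise libraries, a difference of -0.65 ± 0.14. Without exercise 1 the adjusted p of these 3 genes was 0.012, 0.0136 and 0.0182 (limma).

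The other lower genes among the 12 with the smallest p were of mixed function. Tfpi, an inhibitor of the start of blood clotting, differed by -0.44 ± 0.09, and Bpgm, which sets the level of the phosphoglycerate that loosens oxygen from haemoglobin, by -0.50 ± 0.11. Crls1, the enzyme that makes the mitochondrial lipid cardiolipin, differed by -0.39 ± 0.09. The remaining 3 were the tetraspanin Tspan6 at -0.68, the centrosomal gene Tbc1d31 at -0.55 and the kinase Nek1, which takes part in cilia and DNA repair, at -0.48. For each of these 6 genes the groups did not overlap, as their choice required.

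Lower levels went with low GC content of the transcript. In the GC quintile from 31.0% to 43.8%, the median fold change was -0.16, and in the quintile from 55.6% to 72.8% it was 0.04. Groups that did not overlap were lower for 205 genes of the first quintile (8.76%) and 23 of the last (0.983%), and higher for 19 (0.812%) and 176 (7.52%). The GC content was 40.4% for Xpo1, 40.3% for Ipo7, 41.0% for Uba3, 39.0% for Nae1, 38.7% for Eif2s2 and 44.9% for Tra2a. When each library's trend with GC was removed, the differences became -0.43 for Xpo1, -0.58 for Ipo7, -0.49 for Uba3, -0.32 for Nae1, -0.47 for Eif2s2 and -0.59 for Tra2a. The median of the splicing list went from -0.20 to -0.10 and that of the transport list from -0.23 to -0.20. Of 55 genes named here that passed without exercise 1, 38 also did with the GC trend removed (limma). Another 16 did not, with adjusted p from 0.0504 to 0.0839, namely Kpna3, Luc7l3, Rbm39, Nae1, Tfpi, Tspan6, Nek1, Trib3, Sesn2, Man2b2, Stk11ip, Ubb, Col4a5, Col6a3, Adamts1 and Krt14, and Gm42102 had no GC value. Whether RNA quality or library preparation had a part in this trend was not tested.

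**Figure D2:**
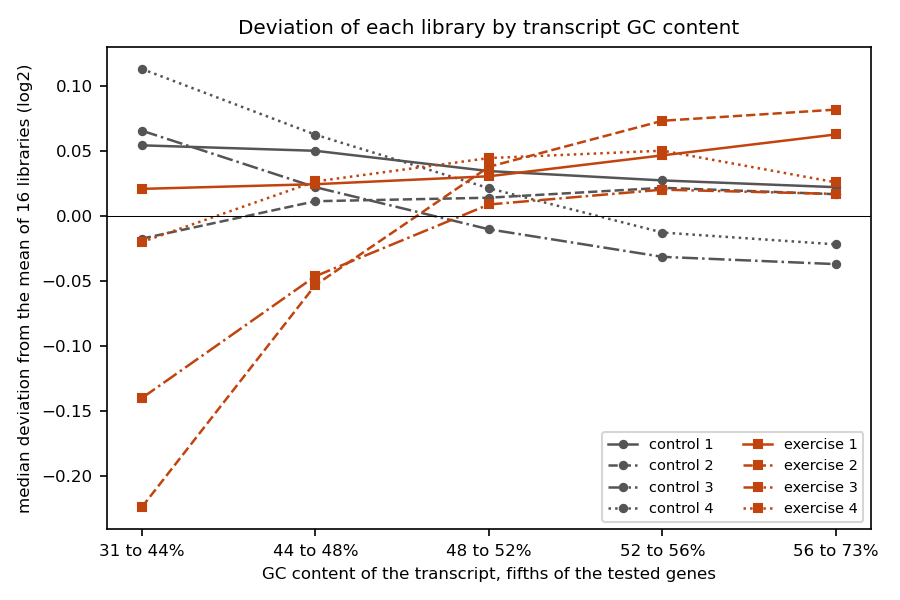
Median deviation of each control and exercise library from the mean of all 16 libraries (log2, vertical axis) in quintiles of transcript GC content (horizontal axis). In the lowest quintile exercise 2 and 3 lie at -0.22 and -0.14, exercise 4 and control 2 at -0.02 each, and exercise 1 at 0.02, while the other 3 controls lie between 0.05 and 0.11.

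Genes of the ATF4 pathway lay lower too, most of them with a higher GC content than the genes above. Slc1a4, a carrier of alanine, serine and cysteine that was among the 12 lower genes with the smallest p, and Trib3, Asns and Pycr1 of the ATF4 list are shown here by their promoters, because they hold the core of the C/EBP-ATF response element to which ATF4 binds and lay lower in every exercise library. The windows run from 250 bases before to 50 after the gene's start, on the gene's strand, from RefSeq at GRCm38.p6, and the capitals mark TGATGNAA or its reverse complement. They lie at chr2:152344011-152344310 for Trib3, chr6:7693160-7693459 for Asns, chr11:120643699-120643998 for Pycr1 and chr11:20332664-20332963 for Slc1a4, all on the minus strand.
Trib3: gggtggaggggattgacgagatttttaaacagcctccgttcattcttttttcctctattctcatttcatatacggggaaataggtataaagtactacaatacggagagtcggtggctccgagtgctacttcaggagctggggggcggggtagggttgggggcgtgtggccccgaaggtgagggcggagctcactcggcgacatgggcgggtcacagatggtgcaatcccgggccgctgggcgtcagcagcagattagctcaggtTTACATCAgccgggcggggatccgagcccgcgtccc
Asns: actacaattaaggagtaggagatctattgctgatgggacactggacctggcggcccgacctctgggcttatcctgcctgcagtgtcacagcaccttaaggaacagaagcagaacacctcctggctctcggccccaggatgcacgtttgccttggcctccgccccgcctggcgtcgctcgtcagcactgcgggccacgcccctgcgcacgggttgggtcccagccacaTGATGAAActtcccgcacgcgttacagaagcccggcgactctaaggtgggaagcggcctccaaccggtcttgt
Pycr1: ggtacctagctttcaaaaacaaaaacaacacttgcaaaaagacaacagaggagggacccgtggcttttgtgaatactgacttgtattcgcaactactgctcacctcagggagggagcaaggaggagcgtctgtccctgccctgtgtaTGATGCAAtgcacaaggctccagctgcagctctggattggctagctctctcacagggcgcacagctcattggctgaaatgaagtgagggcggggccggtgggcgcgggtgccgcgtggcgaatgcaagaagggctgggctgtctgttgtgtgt
Slc1a4: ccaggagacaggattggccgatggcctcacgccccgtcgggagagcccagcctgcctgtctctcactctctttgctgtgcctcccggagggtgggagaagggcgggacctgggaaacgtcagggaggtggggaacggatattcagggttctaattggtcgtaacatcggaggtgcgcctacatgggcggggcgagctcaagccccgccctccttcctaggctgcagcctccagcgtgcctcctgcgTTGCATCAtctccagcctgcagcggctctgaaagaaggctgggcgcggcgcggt
Searched on both strands, these letters stood in 8 of the 22 ATF4 list genes with a window (36.4%), against 4.51% of 27025 gene symbols with a window. Of the tested genes with a window, 2.71% of 9337 held them, and 4.7% of the 319 that were lower without overlap. Within the ATF4 list, 7 of 21 tested genes with a window held them (33.3%), and 3 of the 8 that were lower without overlap (37.5%). A match is a description of the sequence and not a shown binding site. The list was drawn up as ATF4 targets and amino acid synthesis genes, so its excess over all symbols tells nothing of exercise.

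Of 23 tested genes of the ATF4 list, 19 lay under 0 and 8 had groups that did not overlap, all lower, where 3.51% of all genes did. The median was -0.30. Trib3, a pseudokinase that feeds back on ATF4 (chromosome 2, 152337425 to 152344060), measured 42.4, 25.04, 45.96 and 32.5 FPKM in the controls and 16.97, 18.2, 20.99 and 16.1 in the exercise libraries. The exercise libraries were close together and all under the lowest control, control 2, with a difference of -0.94 ± 0.22 (adjusted p = 0.181, limma). Sesn2, an inhibitor of mTORC1 signalling when leucine is short, measured 8.32, 6.27, 9.24 and 6.28 FPKM and 5.11, 2.82, 3.46 and 3.7, a difference of -0.84 ± 0.23. Mthfd2, an enzyme of mitochondrial folate metabolism, measured 62.6, 46.7, 56 and 33.3 FPKM and 25.2, 26.6, 30.7 and 22.8, a difference of -0.86 ± 0.26.

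Some enzymes of non-essential amino acid synthesis lay lower as well, and Phgdh, the first enzyme of serine synthesis, did not separate the groups, at 195, 149, 192 and 152 FPKM in the controls and 168, 178, 163 and 178 in the exercise libraries, a difference of 0.01 ± 0.18. Asns, which makes asparagine, measured 136, 106, 135 and 105 FPKM in the controls and 100.04, 82.1, 80.3 and 64.9 in the exercise libraries, a difference of -0.56 ± 0.19. Psat1 and Psph, which catalyse steps of serine synthesis, differed by -0.42 ± 0.19 and -0.46 ± 0.20, and Aldh18a1 and Pycr1 of proline synthesis by -0.30 ± 0.11 and -0.68 ± 0.27. Psat1, Psph, Aldh18a1 and Pycr1 are named because their groups did not overlap, a choice made after their values were seen. Slc1a4 measured 13.5, 17.5, 18.3 and 14.4 FPKM in the controls and 9.22, 9.5, 11.9 and 7.61 in the exercise libraries, a difference of -0.69 ± 0.15. Atf4 itself, also chosen afterwards, measured 297, 238, 302 and 269 FPKM and 242, 214, 257 and 231, with groups that overlapped and a difference of -0.22 ± 0.14.

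Unlike most groups here, the ATF4 list included exercise 1. The list's mean log2(FPKM + 1) was 5.41, 5.16, 5.32 and 5.06 in controls 1 to 4 and 4.82, 4.93, 5.003 and 4.87 in exercise 1 to 4, so that exercise 1 lay lowest of all 8. The median fold change was -0.29 without exercise 1, -0.24 without controls 1 and 2, and -0.37 with the GC trend removed. GC content was 58.2% for Trib3, 58.7% for Sesn2 and 52.9% for Slc1a4. Without exercise 1, the adjusted p was 0.0431 for Trib3, 0.0363 for Sesn2 and 0.0318 for Slc1a4 (limma), while the other 21 list members did not pass. Of all genes tested, 3.66% passed on the lower side in that fit.

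**Figure D3:**
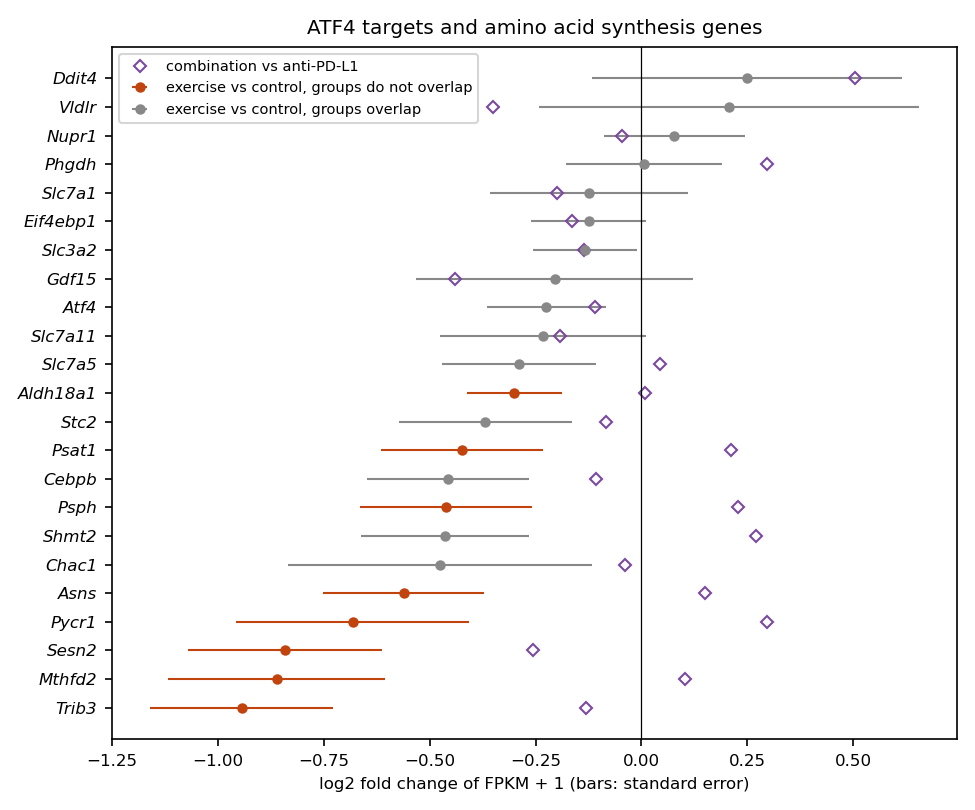
Log2 fold change of FPKM + 1 (horizontal axis) of the 23 tested ATF4 list genes for exercise against control (filled points with standard errors) and for the combination against anti-PD-L1 (open diamonds). The 8 genes with groups that did not overlap, in orange, all lie on the lower side for exercise alone, and their diamonds spread on both sides of 0.

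A neighbouring stress pathway had a median nearer to 0. Of 20 genes of the unfolded protein response 18 lay under 0, with a median of -0.16 and no groups apart. Hsp90b1, a chaperone of the endoplasmic reticulum, measured 302, 350.4, 255 and 296 FPKM in the controls and 262, 191, 198 and 242 in the exercise libraries, a difference of -0.43 ± 0.14. Hspa5, the master chaperone of that compartment, differed by -0.21 ± 0.16. Without controls 1 and 2 the median of the list was -0.04, and control 2 held the highest level of both genes.

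On the higher side, the smallest p belonged to Dyrk1b, a kinase tied to cell cycle exit and muscle differentiation (chromosome 7, 28179447 to 28197910). Dyrk1b measured 5.73, 4.88, 4.49 and 5.88 FPKM in the controls and 6.88, 9.22, 9.18 and 9.71 in the exercise libraries, with no overlap and a difference of 0.64 ± 0.13 (adjusted p = 0.181, limma). Itga10, an integrin subunit that binds collagen (chromosome 3, 96645584 to 96664519), measured 0.83, 0.83, 1.71 and 2.13 FPKM and 2.33, 4.84, 3.81 and 4.27, a difference of 1.03 ± 0.21. Controls 1 and 2 were lowest and exercise 2 was highest, and exercise 1 lay just above control 4. Without exercise 1 the adjusted p was 0.012 for Dyrk1b and 0.012 for Itga10 (limma).

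The other 10 of the 12 higher genes with the smallest p were of mixed function. Man2b2, a lysosomal mannosidase, measured 26.8, 32.2, 23.1 and 27.5 FPKM in the controls and 35.99, 41.2, 34.9 and 44.1 in the exercise libraries, and Stk11ip, a lysosomal protein that binds the kinase LKB1, measured 10.2, 10.1, 9.94 and 10.6 and 12.3, 14.8, 13.2 and 14.4. Flii, an actin-binding protein of the gelsolin family, measured 66.3, 78.2, 71.96 and 78.9 FPKM in the controls and 84.7, 105, 103 and 115 in the exercise libraries. Each exercise library lay above each control for all 3, as their choice required. The differences were 0.50 ± 0.11, 0.38 ± 0.08 and 0.46 ± 0.10. Ubb, one of the polyubiquitin genes, measured 1707, 1737, 1816 and 1846 FPKM in the controls and 2103, 2265, 2304 and 2523 in the exercise libraries, a difference of 0.37 ± 0.09. Ubb may share reads with other ubiquitin genes and is uncertain for that reason. Trim47, a RING ubiquitin ligase, differed by 0.51 ± 0.12, and Maml3, a coactivator of Notch signalling, by 0.46 ± 0.11. Nit2, an amidase, and Cnppd1, a cyclin-like gene, differed by 0.33 ± 0.08 and 0.47 ± 0.10, and the little-described Gm42102 and 4931406P16Rik by 0.45 ± 0.10 and 0.45 ± 0.10.

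Structural genes of the matrix were split. Of 15 basement membrane genes 4 had an unadjusted p under 0.05, all higher, where 8.03% of all genes were. Without exercise 1 Lamc1, Hspg2 and Col4a5 passed, or 3 of the 15 against 1.49% of all genes. Lamc1, the gamma chain found in most laminins, measured 44.1, 56.9, 45.4 and 66.8 FPKM in the controls and 60.3, 98.7, 92.4 and 90.6 in the exercise libraries, a difference of 0.67 ± 0.16. Exercise 2 to 4 lay above all controls, and exercise 1 lay under control 4. The perlecan gene Hspg2 and the collagen IV gene Col4a5 differed by 0.49 ± 0.14 and 0.74 ± 0.21. Among 20 fibroblast genes, Col6a1, a chain of the microfibrillar collagen VI, measured 131, 216, 277 and 352 FPKM in the controls and 373, 551, 368 and 483 in the exercise libraries, with each exercise library above each control, a difference of 0.93 ± 0.33. Pdgfra, the receptor that marks fibroblasts, differed by 0.74 ± 0.23 and Col6a3 by 0.44 ± 0.14. Both passed without exercise 1, or 2 of the 20 against 1.49% of all genes on the higher side. Of the 20 fibroblast genes 9 lay above 0 and 11 below, with a median of -0.12. At an unadjusted p under 0.05, 5 were higher, where 8.03% of all genes were, and 3 lower, where 9.93% were. Lum, a further fibroblast marker, lay the other way, at a median of 9.065 FPKM in the controls and 3.465 in the exercise libraries.

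The matrix genes Postn and Lox lay lower, and controls 1 and 2 held their highest levels. Postn, which encodes the matrix protein periostin, measured 189.6, 98, 62.7 and 49.6 FPKM in the controls and 37.2, 35.2, 31.03 and 39.7 in the exercise libraries, a difference of -1.27 ± 0.44 with no overlap. Lox, the enzyme that crosslinks collagen, measured 46.3, 48.4, 12.2 and 4.21 FPKM and 3.67, 4.62, 3.36 and 4.7, a difference of -1.99 ± 0.63. Without controls 1 and 2 the difference was -0.63 for Postn and -0.71 for Lox. Of 17 matrix metalloproteinase and inhibitor genes, Mmp14, which activates gelatinase A at the cell surface, measured 86.9, 97.9, 83.6 and 113 FPKM in the controls and 99.7, 151, 148 and 151 in the exercise libraries, and differed by 0.51 ± 0.16. Mmp14 and Adamts1, a versican-cutting protease, at 0.66 ± 0.23, passed without exercise 1. They were 2 of the 17, where 1.49% of all genes passed on the higher side. Of the 17 genes 7 lay above 0 and 10 below, with a median of -0.09. At an unadjusted p under 0.05, 4 were higher, where 8.03% of all genes were, and 2 lower, where 9.93% were.

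Genes of fuel use gave single differences and no common direction. In the list of fatty acid oxidation and PPAR targets 10 of 19 genes lay above 0, where 46.2% of all genes did, and 6 of them had an unadjusted p under 0.05, where 8.03% did. Cpt1a, the gate for fatty acids into mitochondria, measured 18.9, 16, 18.5 and 24.7 FPKM in the controls and 24.5, 39.99, 30.4 and 35.8 in the exercise libraries, a difference of 0.71 ± 0.18. Acadvl, which starts the oxidation of very long chains, differed by 0.29 ± 0.12. Without exercise 1 the adjusted p of Cpt1a was 0.0224 (limma).

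The fatty acid carrier Cd36 lay the other way, at 11.3, 19.8, 2.25 and 4.43 FPKM in the controls and 1.46, 1.58, 1.04 and 1.42 in the exercise libraries, a difference of -1.79 ± 0.45. Controls 1 and 2 held most Cd36, and the same was true of Fabp4, at 32.9, 122, 8.96 and 9.11 FPKM against 11.8, 13.6, 12.2 and 11.2. Markers of fat cells were measured beside them, and Adipoq, Plin1 and Cidec did not exceed 0.41 FPKM in any of the 8 libraries. The summed level of the 6 tested fat-cell genes ranged from 35.2 to 184 FPKM in the controls and from 43 to 48.1 in the exercise libraries. Of 21 glycolysis genes 10 lay above 0, and Hk2, the first enzyme of the pathway, differed by -0.41 ± 0.28. Slc16a3, the exporter of lactate, measured 97.1, 97.8, 91.8 and 66.8 FPKM in the controls and 64.3, 61.5, 70.7 and 34.5 in the exercise libraries, a difference of -0.64 ± 0.29. Of 20 hypoxia genes 8 lay above 0, Car9, a carbonic anhydrase induced by low oxygen, differed by 0.34 ± 0.46, and Vegfa, the main vessel growth factor, by -0.01 ± 0.26.

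Genes of cell division were lower in exercise 2 to 4 and not in exercise 1. All 28 mitosis genes lay under 0, where 53.8% of all genes did, with a median of -0.31, and 13 had an unadjusted p under 0.05, where 9.93% did on that side. The list's mean log2(FPKM + 1) was 5.56, 5.45, 5.32 and 5.05 in controls 1 to 4 and 5.62, 4.76, 4.65 and 4.90 in exercise 1 to 4. Exercise 1 was the highest of the 8 and the other 3 exercise libraries were the lowest. Mki67, the proliferation marker, measured 64.7, 57.5, 51.9 and 42.8 FPKM in the controls and 63.9, 18.4, 17.4 and 31.1 in the exercise libraries, a difference of -0.90 ± 0.29 (adjusted p = 0.188, limma). Smc4, a subunit of condensin, measured 90.6, 82.6, 82.4 and 69.7 FPKM and 89.8, 29.4, 29.8 and 43.3, and Kif11, the motor that separates spindle poles, measured 34.4, 30.2, 33.5 and 25.8 and 36.2, 15.8, 15.9 and 18.4.

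Without exercise 1, 16 of the 28 mitosis genes passed on the lower side, where 3.66% of all genes did, and the median was -0.50. Mki67 then differed by -1.28 ± 0.18, Smc4 by -1.24 ± 0.16, Kif11 by -0.85 ± 0.11 and the centromere motor Cenpe by -1.23 ± 0.20. Others among the 10 lower genes with the smallest p in that fit were Ckap5, a microtubule polymerase, Mastl, a kinase that holds cells in mitosis, Depdc1a, a mitotic gene, Etaa1, an activator of the ATR checkpoint kinase, Fkbp3, a prolyl isomerase of the nucleus, and Tmem47, a protein of cell junctions, with fold changes from -1.21 (Tmem47) to -0.67 (Ckap5). Tmem47 was the only one of these 6 whose groups did not overlap with exercise 1 included, at 14.1, 13.5, 13.5 and 12.6 FPKM in the controls and 11.7, 5.29, 6.16 and 4.35 in the exercise libraries. Replication genes had a median of -0.23, or -0.36 without exercise 1, when Ccne2, a cyclin that opens S phase, was among the genes that passed. In the same fit the 10 higher genes with the smallest p included Elk4, a partner of serum response factor, at 0.65, Ssh1, a cofilin phosphatase, at 0.67, Wasf2, a driver of actin branching, at 0.36, Lrp1, an endocytic receptor, at 0.72, Zmiz1, a transcriptional coregulator, at 0.71, and Calcoco1, an autophagy receptor, at 0.68.

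Cholesterol synthesis split the libraries as mitosis did. Of 20 genes 18 lay under 0, where 53.8% of all genes did, with a median of -0.28, which became -0.50 without exercise 1. The list's mean level was 4.89, 5.05, 4.75 and 4.66 in controls 1 to 4 and 5.17, 4.39, 4.41 and 4.35 in exercise 1 to 4, again with exercise 1 highest and the other exercise libraries lowest. Msmo1, a sterol demethylating oxidase, measured 89.1, 90.3, 73.7 and 75.1 FPKM in the controls and 102, 42.8, 46.96 and 38.2 in the exercise libraries, a difference of -0.61 ± 0.25. Sqle, the epoxidase that is a rate-limiting step of the pathway, measured 55.3, 60.1, 53.03 and 46.4 FPKM and 64.2, 31.4, 31.7 and 29.5. Without exercise 1, 5 of the 20 passed on the lower side, where 3.66% of all genes did, Msmo1 and Sqle among them.

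**Figure D4:**
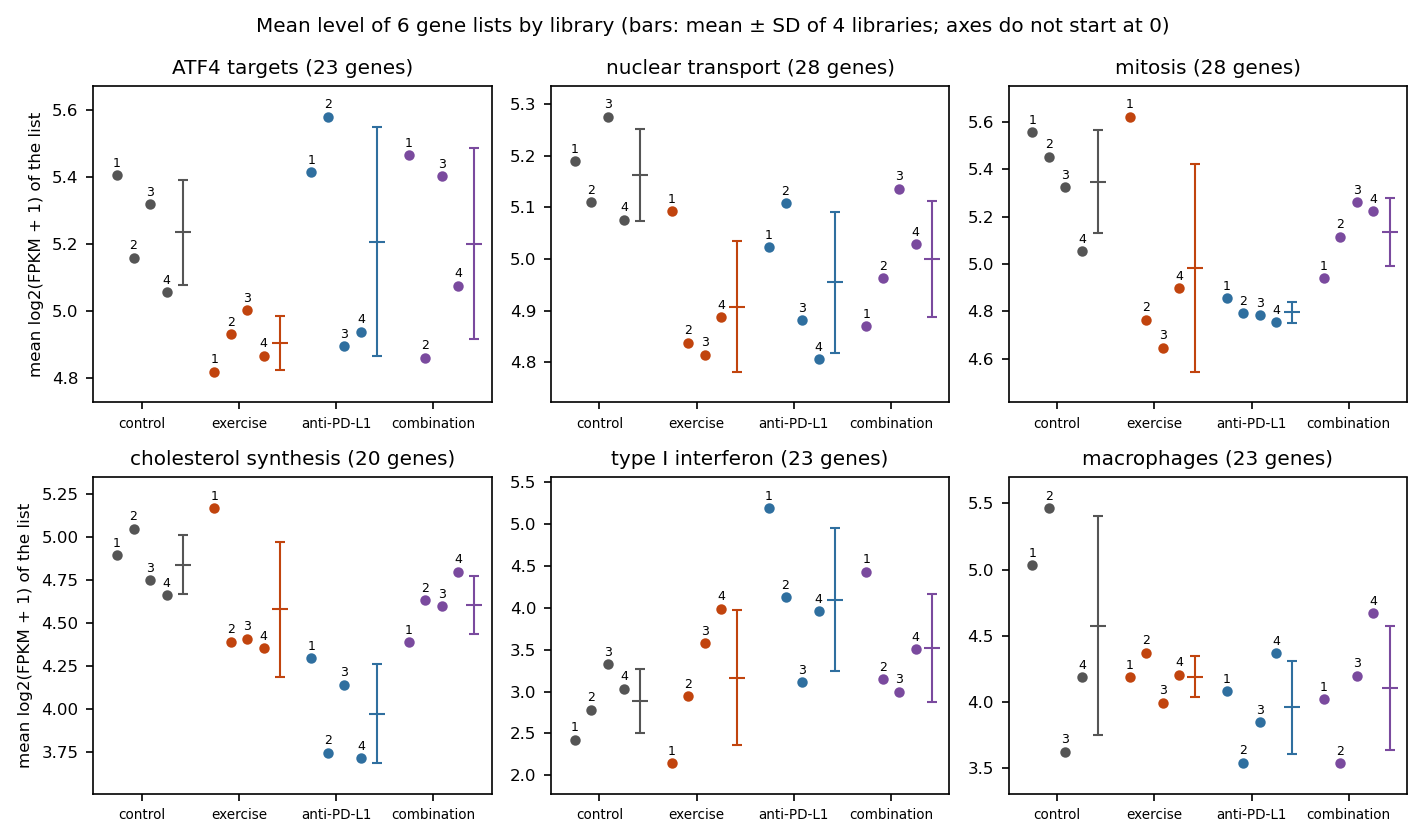
Mean log2(FPKM + 1) of the tested genes of 6 lists (vertical axes, not from 0) in the 4 libraries of each group, numbered beside the points, with bars for the mean ± SD. Exercise 1 lies above all controls for mitosis and cholesterol synthesis, below all controls for ATF4 targets and type I interferon, and controls 1 and 2 lie above every other library for macrophages.

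Of 8 tested genes of cytotoxic lymphocytes 6 lay above 0, with a median of 0.52. Gzmb, a granzyme of killer cells, measured 2.11, 1.21, 4.14 and 2.66 FPKM in the controls and 3.42, 2.93, 6.05 and 4.61 in the exercise libraries, a difference of 0.60 ± 0.41. Gzmc, a further granzyme, measured 4.66, 2.03, 11.9 and 9.28 FPKM and 10.2, 13.8, 18.2 and 21, a difference of 1.24 ± 0.49, and Prf1, the pore former perforin, differed by 0.80 ± 0.47. Control 2 was lowest for all 3 genes and the groups overlapped. Ccl5, a T-cell chemokine, was the 1 gene of the 8 with groups apart, where 4.21% of all genes were higher in that way. It is named for that, after its values were seen. Ccl5 measured 6.29, 5.04, 4.98 and 5.79 FPKM in the controls and 6.47, 6.71, 6.86 and 8.13 in the exercise libraries, a difference of 0.30 ± 0.23. The mean level of the 8 genes was 1.93, 1.31, 2.47 and 2.10 in the controls and 2.42, 2.34, 2.80 and 2.65 in the exercise libraries. Of 24 T-cell genes 6 were tested and none passed. In bulk tumours, fewer cells of a type and less RNA per cell cannot be told apart.

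The type I interferon list varied between libraries of both groups. Of 23 genes 22 lay above 0, none with an unadjusted p under 0.05, at a median of 0.26. Its mean level was 2.43, 2.78, 3.33 and 3.03 in the controls and 2.14, 2.95, 3.58 and 3.99 in the exercise libraries, where exercise 1 was the lowest of the 8 and exercise 4 the highest. The median was 0.60 without exercise 1 and -0.01 without controls 1 and 2. Bst2, a tether of budding viruses, measured 72.01, 56.6, 91.5 and 69.3 FPKM in the controls and 47.3, 85.4, 123 and 117 in the exercise libraries. Cd274, which encodes PD-L1 itself, measured 5.83, 5.17, 3.47 and 4.5 FPKM and 1.69, 3.27, 6.33 and 5.34, a difference of -0.24 ± 0.30. Cxcl10, a chemokine induced by interferon, differed by 0.64 ± 0.63.

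Macrophage and vessel genes followed controls 1 and 2. Of 23 macrophage genes 22 lay under 0, with a median of -0.31 and no groups apart. Their mean level was 5.03, 5.46, 3.62 and 4.19 in the controls and 4.19, 4.37, 4.00 and 4.21 in the exercise libraries, and without controls 1 and 2 the median was 0.37. Arg1, an arginase of suppressive macrophages, measured 227, 245, 78.9 and 97.9 FPKM in the controls and 51.5, 76.3, 71.01 and 88.5 in the exercise libraries. Ccl6, a chemokine of myeloid cells, measured 95.8, 267, 45.9 and 54.2 FPKM and 21.5, 28.7, 38.9 and 22.8, with each exercise library below each control and a difference of -1.68 ± 0.41, or -0.85 without controls 1 and 2. For the genes of endothelium and pericytes the median was -0.38, or 0.22 without controls 1 and 2. Lyve1, of lymphatic vessels and some macrophages, measured 21.5, 49.4, 1.55 and 0.51 FPKM in the controls and 1.05, 1.47, 0.61 and 0.72 in the exercise libraries, while the endothelial adhesion gene Pecam1 measured 15.6, 32.8, 9.03 and 9.72 and 9.86, 13.9, 13.4 and 11.8.

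Krt14, the keratin of basal skin cells, measured 20.6, 9.14, 17.5 and 34.5 FPKM in the controls and 34.1, 58.4, 57.6 and 71.9 in the exercise libraries. Exercise 1 lay just under control 4 and the rest lay higher, a difference of 1.49 ± 0.41, with an adjusted p of 0.0413 without exercise 1 (limma). Its partner Krt5 and the basal regulator Trp63 did not exceed 0.41 FPKM in any of the 8 libraries, and the summed level of the 6 tested basal genes ranged from 95.6 to 136 FPKM in the controls and from 128 to 179 in the exercise libraries. Sfn and Itgb4, which basal cells also express, differed by 0.18 ± 0.19 and 0.29 ± 0.14.

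Genes that report exercise in muscle or its hormones showed little. Of 18 tested genes of exercise, AMPK and PGC1A signalling, 9 lay above 0, none had groups apart and none had an unadjusted p under 0.05, with fold changes that reached -0.20 for the nuclear receptor Esrra and 0.17 for the glucose transport regulator Tbc1d1 among the 4 with the smallest p. Ppargc1a, the coactivator PGC-1 alpha, and Il6, an exercise-induced cytokine, were below the level for testing, at no more than 0.12 and 0.31 FPKM. Of 12 glucocorticoid targets 9 lay above 0, at a median of 0.09. Per1, a clock gene that glucocorticoids induce, measured 11.9, 23.9, 17.8 and 12.97 FPKM in the controls and 31.3, 19.7, 23.6 and 37.9 in the exercise libraries, a difference of 0.73 ± 0.35 with groups that overlapped. Among 15 clock genes only Nfil3 and Tef had groups apart, 1 lower and 1 higher. Of all genes 3.51% were lower in that way and 4.21% higher. Nfil3, a repressor of D-box genes, measured 12.4, 12.4, 10.97 and 10.6 FPKM and 6.55, 8.03, 9.84 and 6.73, a difference of -0.53 ± 0.14, and Tef, an activator at the same element, measured 15.1, 21.4, 16.7 and 17.5 and 24.7, 21.8, 25.9 and 23.5, a difference of 0.43 ± 0.15. Exercise 1 shared both differences, as the absence of overlap requires, and its Nfil3 level was the lowest of the 8.

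Single genes of a panel of 24 were also compared by a two-sided exact permutation test on log2(FPKM + 1), for which 4 libraries against 4 cannot go below p = 0.0286. Xpo1, Tra2a, Dyrk1b, Itga10 and Trib3 reached that value, as any gene whose groups do not overlap must, so the test adds nothing to the absence of overlap. Of the panel genes in the fit over all genes none passed (limma). Ppargc1a and Il6 were below the level for that fit.

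Exercise could also be compared under antibody, in the 4 combination and 4 anti-PD-L1 libraries, which share no library with the comparison above. No gene passed there either, with 468 (3.94%) at an unadjusted p under 0.05 and a smallest adjusted p of 0.968 (limma), and groups did not overlap for 1.4% of genes higher and 0.843% lower. Across the 11868 genes the fold changes of the 2 settings correlated at -0.15, a description over genes that are not independent. The 416 genes that were lower without overlap in exercise against control had a median of -0.34 there and 0.02 under antibody, and 175 of them were below 0 under antibody, where 44.8% of all genes were. The 500 higher genes had medians of 0.28 and 0.02, with 305 above 0 under antibody, where 55.2% of all genes were. Tra2a measured 44.8, 44.8, 31.6 and 35.9 FPKM in anti-PD-L1 libraries 1 to 4 and 37.8, 37.2, 45.4 and 36.4 in combination libraries 1 to 4, a difference of 0.01 ± 0.12. Dyrk1b measured 5.02, 5.26, 6.09 and 7.2 and 7.05, 6.69, 5.16 and 5.99, a difference of 0.07 ± 0.13.

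The interaction term tests whether exercise differed between the settings. No gene passed with all libraries (smallest adjusted p 0.364, 1554 genes or 13.1% at an unadjusted p under 0.05, limma), so the fold changes of the settings are given side by side. Trib3 differed by -0.94 with exercise alone and -0.13 under antibody, Slc1a4 by -0.69 and -0.25, and Xpo1 by -0.58 and -0.01. Without exercise 1, 223 genes (1.88%) passed the interaction in limma, 195 of them (1.64%) with a higher fold change under antibody and 28 (0.236%) with a lower one. Mki67 differed by -1.28 ± 0.18 without antibody in that fit and by 0.63 ± 0.17 with it (interaction adjusted p = 0.00692, limma). Smc4, Kif11, Msmo1 and Sqle passed as well, with adjusted p of 0.00692, 0.00692, 0.00728 and 0.00928. Cpt1a and Lamc1 passed in the other direction, at 0.83 without and -0.41 with antibody for Cpt1a and 0.82 and -0.20 for Lamc1 (adjusted p = 0.0227 and 0.0201). The mitosis list had a median of 0.32 and the cholesterol list of 0.66 under antibody, while the ATF4 list had -0.05.

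**Figure D5:**
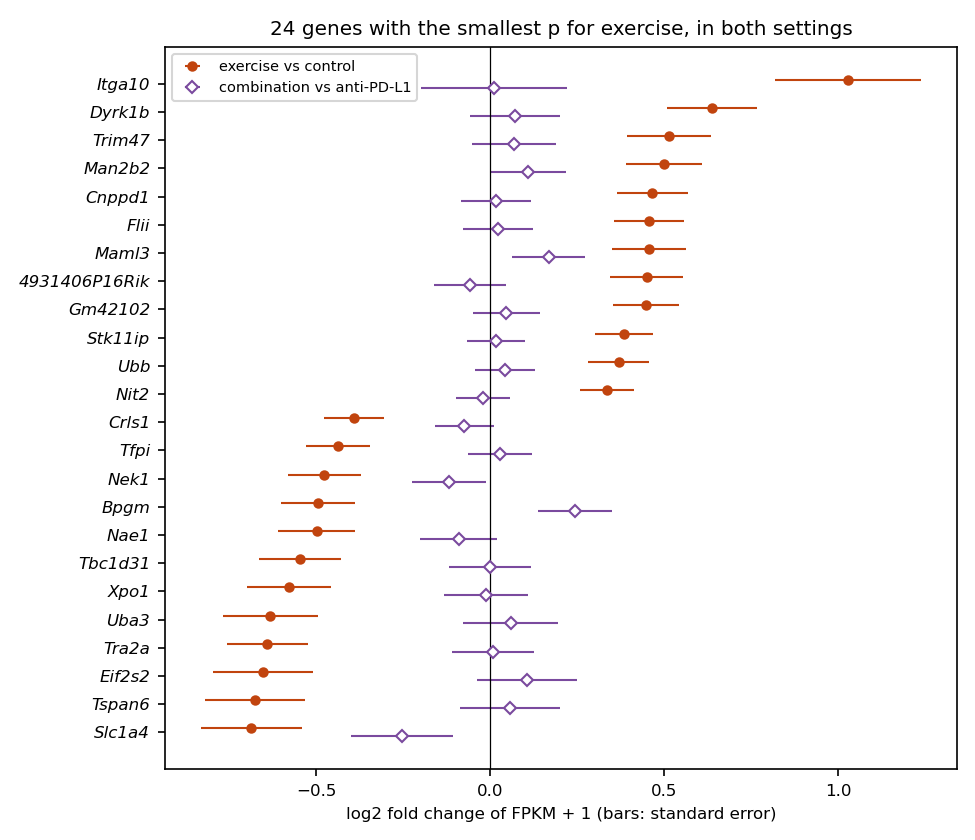
Log2 fold change of FPKM + 1 with its standard error (horizontal axis) of the 12 higher and 12 lower genes with the smallest p among groups that did not overlap, for exercise against control (filled points) and for the combination against anti-PD-L1 (open diamonds). The filled points lie away from 0 on either side, as their choice requires, and the diamonds lie between -0.25 for Slc1a4 and 0.24 for Bpgm.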

How the data were processed

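RNA was measured in 4 libraries each of control, exercise, anti-PD-L1 and combination tumours, and total RNA was extracted with Trizol, per the labels' protocols. FPKM values, deposited by the authors to 2 decimals, covered 18480 entries in each library. The submitters' processing notes list HISAT, Bowtie2 and GRCm38.p6 without version or role, and the program that made the FPKM values is not given in the sources used here. Symbols matched RefSeq for 17960 entries, and 26 date-like symbols were kept but not named.

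The 11868 genes that reached 1 FPKM in 4 or more of the 16 libraries were tested on log2(FPKM + 1). One limma model (3.58.1, R 4.3.3, trend and robust settings, 12 residual degrees of freedom) was fitted to all 16 libraries, with p-values adjusted by Benjamini-Hochberg over all genes of a contrast. Of the tests planned for either unit, the one for normalized values applied. In simulated data with 200 changed genes, 86% of those changed by 1 and 100% of those changed by 2 (log2) were recovered, with 2.11% false calls. The simulated noise was independent between genes and equally wide in every library, so no library stood apart. These shares therefore do not give the power in the real libraries. There, 103 genes had an absolute log2 fold change of at least 1 for exercise against control, and none passed. GC content came from the longest GENCODE M21 transcript of each symbol, for 11697 genes, and its trend was removed per library with a spline of 5 degrees of freedom.

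The comparison and the 54 gene lists were chosen with earlier results of these data known. Named are the 12 higher and 12 lower genes with the smallest p whose groups did not overlap, a panel of 24, up to 4 genes of smallest p in each list described, and the 10 higher and 10 lower of smallest p that passed without exercise 1. Other names are said to be chosen afterwards or are markers. Some genes that these rules select are not reported here. Lists are described by counts and medians and carry no test of their own.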

Additional observations from a re-analysis of the deposited data

Results flagged for a closer look

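In 16 of 298 groups of 4 libraries, which are the named genes and the list means, 1 library lay farther from the other 3 than Dixon's 95% limit allows. Chance flags about 1 in 20 such groups. In 10 of the 16 that library was exercise 1. Some named genes, Ssh1 and Wasf2 among them, were picked by their p in the fit without exercise 1. That choice favours genes in which exercise 1 lies apart, so its share of the flags is partly set by it. It was the lowest of its group for Dyrk1b (6.88 FPKM), Cnppd1 (34.8 FPKM), Col4a5 (1.94 FPKM), Mmp14 (99.7 FPKM), Ssh1 (4.27 FPKM) and Wasf2 (65.3 FPKM), and for the mean level of basal keratinocyte genes (3.75 on the log2 scale). It was the highest for Sqle (64.2 FPKM) and for the mean levels of cholesterol synthesis (5.17) and fatty acid synthesis (4.81).

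Exercise 2 was the highest of its group for endothelial and pericyte genes (2.77). Among the controls, control 4 was the lowest for Slc16a3 (66.8 FPKM) and the highest for Calcoco1 (25.7 FPKM), control 1 the lowest for Itgb4 (33.3 FPKM), and control 3 the highest for Eno3 (45.3 FPKM) and the lowest for the mean level of integrin genes (3.56).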

How the results depend on the processing

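Depth is unknown, 4 libraries against 4 limit the power, and 1 library decided the count of genes. With all libraries, 0 genes passed for exercise against control and 2131 had an unadjusted p under 0.05 (limma). No gene passed under quantile normalization, median centring, other filters and pseudocounts, without trend and robust settings, with only the groups compared, without controls 1 and 2, or with the GC trend removed. Leaving out 1 library at a time gave 0 to 611 genes, and exercise 1 was the only library whose removal gave any. The count was 715 with only the groups compared and without exercise 1, 235 with the GC trend removed and without exercise 1, and 2274 with library weights, which give exercise 1 a weight of 0.51 and exercise 3 one of 2.14. For the interaction, leaving out 1 library gave 0 to 223 genes, and 194 passed with the GC trend removed and without exercise 1. The combination against anti-PD-L1 gave 0 in every fit. The fits with the GC trend and those combined with exercise 1 left out were added after seeing the data.

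With the replicate number as a block, 0 genes passed for exercise against control and 2042 had an unadjusted p under 0.05. Deviations of same-numbered controls and exercise libraries correlated at 0.12, 0.20, 0.01 and 0.29 for numbers 1 to 4, and 5 of 8 libraries correlated best with their own number, a hint from the data. Because number 3 did not exceed 0.1, the numbers were not taken as pairs.

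The named genes that changed direction in at least 1 fit follow. Without controls 1 and 2 the log2 fold change was 0.000502 for Hspa5, 0.39 for Fabp4, 0.34 for Pecam1 and -0.18 for Sfn, and Pecam1 was at 0.12 without control 2. Cd274 was at 0.040 without exercise 1, also with only the groups compared, and at 0.10 with the GC trend removed as well. Vegfa was at 0.0013 under quantile normalization, 0.00538 under centring, 0.21 with library weights, 0.03 and 0.09 without controls 3 and 4, 0.25 without exercise 1, also with only the groups compared, and 0.19 with the GC trend removed as well. With 1 library left out at a time the values ran from -0.17 to 0.25 for Vegfa, -0.44 to 0.040 for Cd274, -0.47 to 0.12 for Pecam1 and -1.40 to -0.19 for Fabp4, whose difference with all libraries was -0.95. Phgdh, at 0.01 with all libraries, was at -0.049 with library weights, -0.068 with the GC trend removed (also without exercise 1 or with the block), and between -0.058 and 0.070 with 1 library left out. The cause was not tested.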

Other observations

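Further gene lists gave single genes of note in the same comparison of exercise with control. Chordc1, a co-chaperone of the heat shock protein HSP90, measured 29.9, 25.5, 30.5 and 29.2 FPKM in controls 1 to 4 and 19.1, 21.2, 20.3 and 20.2 in exercise 1 to 4. Each exercise library lay below each control, a difference of -0.49 ± 0.13, and with the GC trend removed the difference was -0.26, at a transcript GC content of 35.7%. Of 15 cytosolic heat shock genes 8 lay under 0 and 7 above. Groups were apart for 1 lower gene, Chordc1, and 1 higher gene, where 3.51% and 4.21% of all genes were. The higher one was Hsp90ab1, which encodes a form of HSP90 and is named for that, after its values were seen. Hsp90ab1 ranged from 2195 to 2451 FPKM in the controls and from 2522 to 2746 in the exercise libraries. Eno3, the muscle form of enolase, measured 38.2, 37.6, 45.3 and 37.3 FPKM in the controls and 36.9, 31.4, 24.5 and 20.3 in the exercise libraries, a difference of -0.50 ± 0.16 without overlap. Eno3 did not follow the muscle gene Acta1, which was highest in control 2, at 170 FPKM, and between 0.65 and 5.29 in the other 7 libraries.

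Of 17 targets of NRF2, the sensor of oxidative stress, 13 lay under 0 and none had groups apart. Hmox1, which degrades haem, measured 267, 475, 42.7 and 54.1 FPKM in the controls and 19.9, 49.3, 55.7 and 45.99 in the exercise libraries, high in controls 1 and 2 alone. Txnrd1, a thioredoxin reductase, measured 52.6, 48.4, 45.5 and 36.4 FPKM and 39.8, 31.2, 32.7 and 30.1, a difference of -0.44 ± 0.16. Fosl1, a growth-induced partner of JUN, measured 198, 147, 176 and 145 FPKM and 115, 112, 149 and 105, a difference of -0.47 ± 0.16, with exercise 3 inside the range of the controls. Klf2, a factor induced by blood flow in endothelium, measured 136, 132, 185 and 171 FPKM and 172, 211, 198 and 187, a difference of 0.31 ± 0.14.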
